A study of Homo sapiens with 12 samples.

Results

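IFIT1, IFIT2, IFIT3, IFIT5, MX1, MX2, RSAD2 and CMPK2 are 8 antiviral effector genes that interferon is known to switch on. These 8 genes were taken out of 35579 genes whose transcripts were summed in the files, and they were chosen on measured values, because earlier results from the same libraries had shown differences between cells given TYRO3 and control cells. Their differences from control are therefore a description, and what a model called among them is given only to show how the model behaves. TYRO3 is a receptor tyrosine kinase, and the study compared forms of it that differ in how they can be cut.

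RNA was sequenced from WM-266-4, a human melanoma cell line. All 12 libraries, control libraries included, came from cells that carried a stable lentiviral knock-down of TYRO3 and grew in puromycin, and the knock-down was made with a single targeting shRNA. The cells were transfected with a pEZY-myc-his plasmid and starved of serum overnight. Per the labels the plasmid coded for GFP in the control group, which the study's text calls an empty plasmid or control vector, so whether control cells made GFP is uncertain. The plasmid coded for wild-type TYRO3 in the WT group, for TYRO3 with the substitution I449A at its gamma-secretase cleavage site in the ΔGS group, or for TYRO3 with P408A, L409P and G419P at its predicted ADAM cleavage sites in the ΔADAM group. Each of the 4 groups had 3 libraries, 1 from each of 3 experiments. Nothing in the labels says whether the experiments used separate cell batches, so p-values measure only the spread between these libraries, which may be technical.

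Type I and type III interferons act through cell-surface receptors and the kinases JAK1 and TYK2, which activate transcription factors such as STAT2. STAT2 joins IRF9 in a complex that binds a DNA element called the interferon-stimulated response element (ISRE), found upstream of many antiviral genes. The IFIT proteins bind viral RNA or translation factors, the MX proteins are dynamin-like GTPases that trap viral components, and RSAD2 and CMPK2 act on nucleotides. Many cell types, melanoma cells among them, can both produce interferon and answer it.

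The library totals ran from 4008293 estimated counts in the control library of experiment 1 to 38184838 in the control library of experiment 2, with a median of 23302002. The control library of experiment 1 was thus the shallowest, and it is the denominator of every ratio within that experiment. TYRO3 transcript, read as CPM (counts scaled to a common library total, here adjusted by TMM normalisation), was 52.8, 47.3 and 56.6 in the control libraries of experiments 1, 2 and 3. It lay between 3060 and 3690 in the TYRO3-transfected libraries of experiment 1 and between 1180 and 1790 in those of experiments 2 and 3. The libraries thus matched their labels as control or TYRO3-transfected. Which form of TYRO3 a library carried cannot be told from this level and was not checked. The 8 melanocyte lineage genes examined, among them PMEL and SOX10, were above 0 in every library. They summed to 1640 to 1990 TPM, a level that also takes transcript length into account, in control, 1070 to 1990 TPM in WT, and 1100 to 1660 TPM over ΔGS and ΔADAM. Of 9 leukocyte genes, CD3E, CLEC4C, IL3RA and PTPRC were among those that stayed under 1 TPM in every library. The keratinocyte genes KRT1 and KRT5 were at 0 throughout, and the summed level of the 9 leukocyte genes was 44.7 to 49.7 TPM in the control libraries and 35.9 to 59.9 TPM in the TYRO3-transfected libraries. Of 5 fibroblast genes, COL1A2 stayed under 1 TPM throughout, and the 5 summed to 72.6 to 94.6 TPM in the control libraries and 47.4 to 75.1 TPM in the TYRO3-transfected libraries. The melanocyte and fibroblast sums thus tended to be lower in the TYRO3-transfected libraries, with overlapping ranges, and their part in the results below was not tested. In bulk RNA such as this, more RNA per cell and more cells with that RNA cannot be told apart.

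The IFIT genes lie in a cluster on chromosome 10, the MX genes next to each other on chromosome 21, and RSAD2 and CMPK2 next to each other on opposite strands of chromosome 2. In GENCODE release 29 on GRCh38 their positions are chr10:89392546-89406486 for IFIT1, chr10:89283694-89309276 for IFIT2, chr10:89327894-89340971 for IFIT3 and chr10:89414586-89421001 for IFIT5, all on the plus strand. MX1 lies at chr21:41420304-41459214 and MX2 at chr21:41361943-41409390, also on the plus strand. RSAD2 lies at chr2:6865806-6898239 on the plus strand and CMPK2 at chr2:6840570-6866635 on the minus strand. Exon overlap with genes on the other strand was small. RSAD2 shared 14 of its 4834 exon bases with CMPK2, MX1 shared 236 of its 8616 with AP001610.1, and IFIT2 shared 65 of its 4101 with LIPA, while IFIT1 and IFIT3 shared 0 with LIPA. IFIT2 also shared 356 exon bases with AL353751.1, which lies on the same strand. The near copies of IFIT1 held few reads, 0 to 3 counts per library for IFIT1B and 0 to 5 for the pseudogene IFIT1P1. The library kit keeps strand, but the strand setting of the quantification is not given in the sources used here, so reads in these shared bases are uncertain.

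The sequences upstream of the genes are shown first, because the ISRE is the element that effectors of this kind are known to share. RefSeq promoter windows on GRCh38.p14, which reach from 250 bases before to 50 bases after an annotated start, were at hand for 12 starts of 6 genes (IFIT1, IFIT3, IFIT5, MX1, RSAD2 and CMPK2). The ISRE core was searched as GAAANNGAAA on both strands, where N is any base. It occurred in 7 of the 12 windows, and at least 1 window of IFIT1, IFIT3, IFIT5, MX1 and RSAD2 held it, against 3.57% of all 35116 RefSeq windows. Below are stretches that end before the annotated start and lie in no annotated exon, read 5′ to 3′ on the plus strand of GRCh38.p14, with each ISRE core in capitals. Each copy shown lies on the other strand, so the capitals are the reverse complement of GAAANNGAAA. They show the pair of copies upstream of IFIT1, the pair at the start that carries most IFIT3 reads, 1 of the copies at the second IFIT3 start, and the single copy upstream of RSAD2.
IFIT1, chr10:89392446-89392545: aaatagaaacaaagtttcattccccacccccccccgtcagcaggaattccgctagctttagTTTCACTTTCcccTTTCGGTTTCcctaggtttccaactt
IFIT3, chr10:89327794-89327893: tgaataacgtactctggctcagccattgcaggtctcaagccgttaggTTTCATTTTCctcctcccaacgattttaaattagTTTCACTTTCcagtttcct
IFIT3 second start, chr10:89332410-89332469: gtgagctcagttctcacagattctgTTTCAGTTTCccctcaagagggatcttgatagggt
RSAD2, chr2:6877565-6877664: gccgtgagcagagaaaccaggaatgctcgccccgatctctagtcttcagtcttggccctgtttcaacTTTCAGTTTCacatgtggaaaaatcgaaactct

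In IFIT1 the first bases of the 2 copies lie 116 and 103 bases before the RefSeq start. In IFIT3 they lie 156 and 122 bases before the first start and 94 and 51 bases before the second. The IFIT5 window holds 3 copies, which begin 45, 19 and 4 bases before the start. MX1 differs from these genes in layout: the window of its second start, the one nearest the transcript with most MX1 reads, holds no GAAANNGAAA, the first start has a copy that begins 11 bases after it, and the third start has a copy 196 bases before it. The RSAD2 copy lies 145 bases before the second of its 2 starts. No CMPK2 window holds GAAANNGAAA on either strand, although the window of its start at position 6865819 holds the shorter GAAANNGAA, which 8.11% of all windows hold. Those letters also lie in the window of the first RSAD2 start, since the windows overlap. The letters TTCNNNGAA, the core of the GAS element of genes that interferon gamma switches on, occur in 1 of the 12 windows, at the third start of MX1, against 7.66% of all windows. A match is a description of the letters and shows neither binding nor control.

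**Figure D1:**
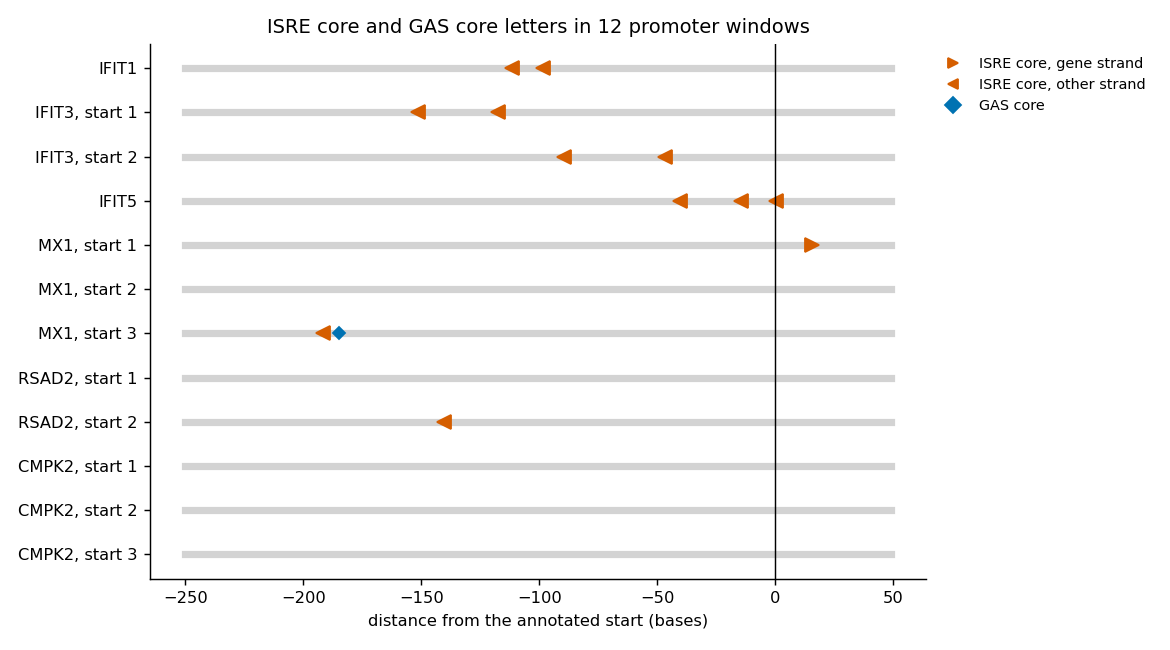
Positions of the ISRE core (triangles, pointing along the strand that reads GAAANNGAAA) and of the GAS core (diamond) in 12 RefSeq promoter windows of 6 genes, as distance in bases from the annotated start. The copies in the IFIT windows lie upstream of the start or across it, while no copy lies in the 3 CMPK2 windows.

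Most effector reads came from 1 transcript per gene, with exceptions in IFIT2, IFIT3, MX2 and CMPK2. The main IFIT1 transcript, of 4302 bases, held 96.4% of the IFIT1 counts over all libraries. The main MX1 transcript, of 2776 bases, held 94.7% of the MX1 counts, and the main RSAD2 transcript, of 3407 bases, held 97.6% of the RSAD2 counts. IFIT5 has a single annotated transcript. IFIT2 was divided between a transcript of 3038 bases with 56.3% of its counts and one of 3393 bases with 40.2%. IFIT3 was divided between a transcript of 2390 bases with 77.9% and one of 2455 bases, which begins further downstream, with 22.1%. All 4 are annotated as protein coding. The main MX2 transcript, of 3408 bases, held 75.3% of its counts but 36.9% of its TPM, so shorter MX2 transcripts contributed much of the MX2 level on that scale. For CMPK2, 63.5% of counts were assigned to a transcript of 2417 bases annotated as a processed transcript, and 31.8% to a protein-coding transcript of 2884 bases. These shares are estimates from reads that transcripts of a gene have in common.

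In the control cells the members already differed widely in level. MX2 had the highest mean, 59.3 ± 13.3 TPM (SD, n = 3), followed by MX1 with 45.3 ± 36.7 TPM and IFIT3 with 42.1 ± 13.1 TPM, and the ranges of these 3 genes overlapped. IFIT1 followed with 16.3 ± 8.41 TPM, below the lowest IFIT3 library, and its range overlapped that of IFIT2 at 10.6 ± 3.85 TPM, which in turn overlapped that of IFIT5 at 8.68 ± 4.94 TPM. CMPK2 at 3.98 ± 3.37 TPM and RSAD2 at 1.09 ± 0.957 TPM were the lowest, again with overlapping ranges. In all 3 TYRO3 groups the order of the means began with MX1, at 184 ± 116 TPM in WT, 189 ± 107 TPM in ΔGS and 189 ± 133 TPM in ΔADAM, followed by IFIT3. It ended with IFIT2, IFIT5, CMPK2 and RSAD2 in that order. MX2 was thus the first of the 8 genes by mean TPM in control cells and the third or the fourth in the TYRO3 groups, where its range overlapped those of IFIT3 and IFIT1. The MX2 ranks rest in large part on its shorter transcripts. In the control libraries of experiments 1, 2 and 3 the main MX2 transcript alone was at 17.2, 22.8 and 23.6 TPM. The main IFIT3 transcript was at 31.2, 40.6 and 22.9 TPM there. Neighbours in the orders of the gene means had overlapping ranges, except IFIT3 and IFIT1 in control and MX2 and IFIT2 in ΔGS. These ranges pool the experiments, so an order can still hold within each library. CMPK2 was above RSAD2 in all 12 libraries, and MX1 was above IFIT3 in all 9 TYRO3-transfected libraries. Other neighbours, such as IFIT2 and IFIT5, changed order between libraries.

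All of the 8 effectors but MX2 were higher than the control library of the same experiment in all 9 TYRO3-transfected libraries, whichever form of TYRO3 the plasmid carried. MX2 was higher in 7 of 9 and nearly flat. By comparison, all 9 TYRO3-transfected libraries lay above their own control for 11.9% of the 15412 genes tested. Since the members were chosen from this contrast, nothing is read from these counts. The values of each gene in every library follow, as TMM-scaled CPM in the order of experiments 1, 2 and 3.

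IFIT1 encodes the founding IFIT protein, which binds RNA whose cap lacks a methyl mark of host messenger RNA and keeps it from being translated. Its CPM was 31.7, 69.4 and 37.8 in control, 85.6, 305 and 106 in WT, 114, 314 and 125 in ΔGS, and 99.3, 404 and 79.9 in ΔADAM. The lowest TYRO3-transfected library lay above the highest control library, and the ratios to the control of the same experiment ran from 2.11 to 5.82.

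IFIT2, which forms complexes with IFIT1 and IFIT3, had CPM of 31.7, 23.4 and 13.2 in control, 51.8, 75.6 and 29.3 in WT, 64.3, 67.3 and 28.6 in ΔGS, and 61.2, 80.5 and 27.8 in ΔADAM. The groups overlapped here, because the control library of experiment 1 stood above the 3 TYRO3-transfected libraries of experiment 3. Within experiments the ratios ran from 1.63 to 3.44.

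IFIT3, which binds IFIT1 and stabilises it, was the IFIT gene with the smallest ratios, from 1.25 to 3.28. Its CPM was 72.6, 80.9 and 45.7 in control, 90.5, 210 and 83.0 in WT, 108, 198 and 79.0 in ΔGS, and 100, 265 and 69 in ΔADAM. In IFIT3, 7 of the 9 TYRO3-transfected libraries exceeded the highest control library, and the 2 that did not came from experiment 3.

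IFIT5, a cytoplasmic binder of RNA with a phosphate at its end, had CPM of 12.8, 35.2 and 20.7 in control, 46.5, 100 and 45.4 in WT, 52.4, 94.1 and 43.9 in ΔGS, and 50.6, 112 and 41.1 in ΔADAM. The groups did not overlap. The 3 TYRO3 groups lay close to each other within each experiment, where the highest differed from the lowest by at most 1.19-fold.

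**Figure D2:**
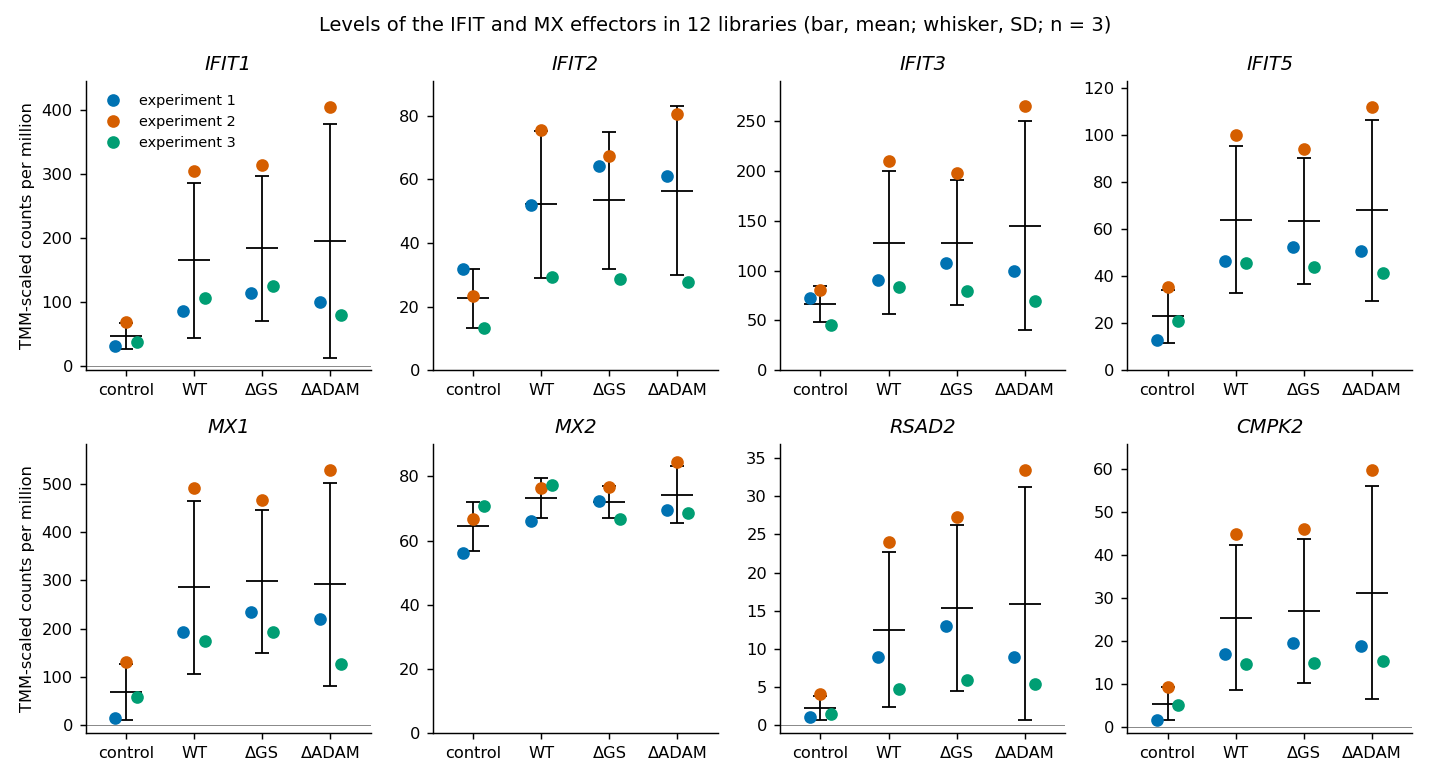
TMM-scaled CPM (vertical axes, linear) of the 8 genes in the control, WT, ΔGS and ΔADAM groups, with 1 point per library coloured by experiment, the mean as a bar and the SD as a whisker (n = 3). Experiment 2 holds the highest TYRO3-transfected library of each gene, while MX2 stays between 56 and 84.5 in all 12 libraries.

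MX1, known as MxA, a cytoplasmic GTPase that blocks influenza and other RNA viruses, had the highest level of the 8 genes after transfection. Its CPM was 15.2, 130 and 58.9 in control, 192, 492 and 174 in WT, 234, 467 and 193 in ΔGS, and 220, 529 and 127 in ΔADAM. The control values alone spanned 8.54-fold between experiments 1 and 2, so the ΔADAM library of experiment 3 lay just below the control library of experiment 2, and the other 8 TYRO3-transfected libraries lay above it. The ratios to the control of the same experiment were 12.6 to 15.3 in experiment 1 and 2.16 to 4.06 in experiments 2 and 3. The control library behind the ratios of experiment 1 held 58 MX1 counts.

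MX2, known as MxB, a GTPase at the nuclear envelope that restricts retroviruses, had CPM of 56, 66.6 and 70.7 in control, 66.0, 76.5 and 77.4 in WT, 72.5, 76.7 and 66.8 in ΔGS, and 69.7, 84.5 and 68.7 in ΔADAM. Its groups overlapped, and the ratios within experiments ran from 0.944 to 1.29. In experiment 3 the ΔGS and ΔADAM libraries lay below the control.

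RSAD2 encodes viperin, a radical SAM enzyme that turns a nucleotide into a chain terminator of viral RNA synthesis. Its CPM was 1.08, 4.03 and 1.47 in control, 8.89, 24.0 and 4.67 in WT, 13.0, 27.3 and 5.85 in ΔGS, and 8.95, 33.5 and 5.35 in ΔADAM. No TYRO3-transfected library overlapped the control range, and the ratios ran from 3.18 to 12. The control library of experiment 1 held only 4 RSAD2 counts, so the ratios of 8.20 to 12 in that experiment are imprecise.

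CMPK2, a mitochondrial kinase of nucleoside monophosphates that can supply nucleotides to RSAD2, had CPM of 1.57, 9.28 and 5.11 in control, 16.8, 44.9 and 14.6 in WT, 19.5, 46.1 and 14.9 in ΔGS, and 18.7, 59.8 and 15.2 in ΔADAM. The groups did not overlap either. The control library of experiment 1 held 6 CMPK2 counts, and the ratios were 10.7 to 12.4 in that experiment, 4.84 to 6.45 in experiment 2 and 2.85 to 2.97 in experiment 3.

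IFIT1, IFIT5, RSAD2 and CMPK2 were thus the 4 genes with all 9 TYRO3-transfected libraries above all 3 control libraries, which 5.0% of the genes tested also showed. The size of the ratio depended on the experiment, and not in the same way for each gene. MX1, RSAD2, CMPK2 and IFIT5 had their largest mean ratio in experiment 1, at 14.1, 9.33, 11.7 and 3.88. IFIT1, IFIT2 and IFIT3 had theirs in experiment 2, at 4.87, 3.17 and 2.76. Over the 8 genes, the median log2 ratio was 1.65, 1.81 and 1.32 in WT, 1.94, 1.68 and 1.33 in ΔGS, and 1.81, 1.90 and 1.08 in ΔADAM for experiments 1, 2 and 3, beside medians of all genes tested between −0.02 and 0.03.

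**Figure D3:**
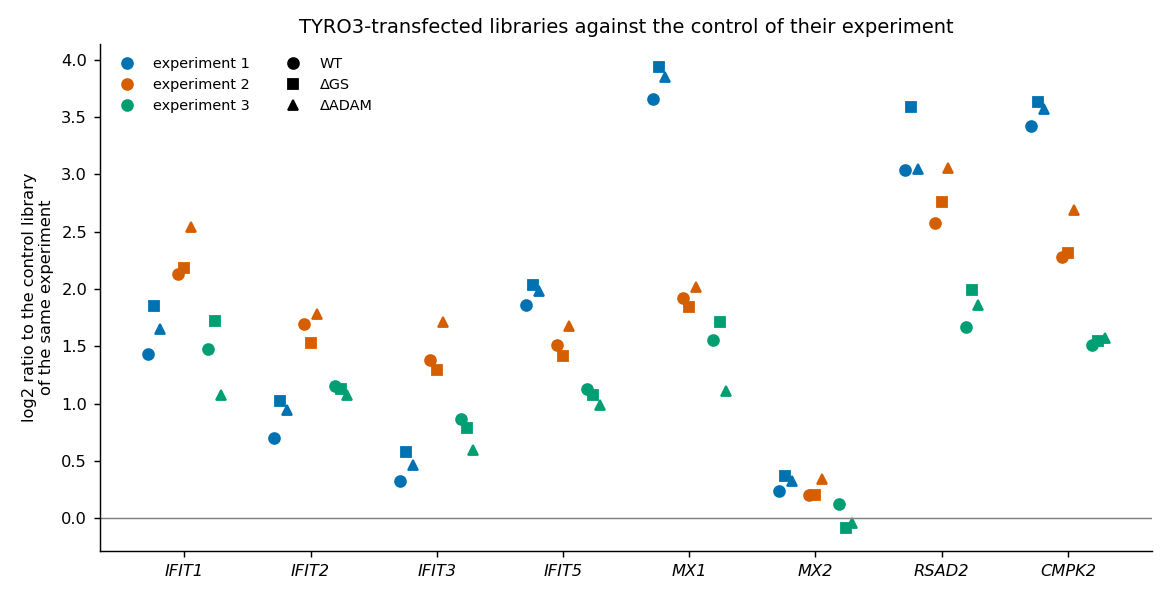
Log2 ratio of each TYRO3-transfected library to the control library of its experiment for the 8 genes, with colours for experiments and symbols for the TYRO3 forms. All points lie above 0 except MX2 in the ΔGS and ΔADAM libraries of experiment 3, and the points of MX1 and CMPK2 differ more between experiments than between TYRO3 forms.

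Fold changes were fitted with edgeR's quasi-likelihood model on all 12 libraries. The first model had a term that set experiment 1 apart from the other two, the batch that the study corrected for. The log2 fold changes against control (± SE, n = 3 per group) in WT were 2.39 ± 0.88 for RSAD2, 2.17 ± 0.63 for CMPK2, 2.16 ± 0.64 for MX1, 1.79 ± 0.59 for IFIT1, 1.46 ± 0.43 for IFIT5, 1.27 ± 0.48 for IFIT2, 0.92 ± 0.52 for IFIT3 and 0.18 ± 0.11 for MX2. Their medians were 1.63 in WT, 1.73 in ΔGS and 1.79 in ΔADAM, beside medians of all genes tested within 0.01 of 0. Single libraries of experiment 2 moved these values by over 1.5-fold. Without the control library of experiment 2, RSAD2 was 3.24 and MX1 was 2.87 in WT, and without the WT library of that experiment RSAD2 was 1.58. In ΔADAM, leaving out its own library of experiment 2 lowered RSAD2 from 2.70 to 1.61, CMPK2 from 2.44 to 1.73, IFIT1 from 2.02 to 1.19 and IFIT3 from 1.09 to 0.39. In this model 0 of the 8 genes were called in any of the 3 comparisons (fold change over 1.5 and adjusted p, by the Benjamini-Hochberg method over all genes, at most 0.05), with 6 of the 8 at an unadjusted p under 0.05 in each, as 15%, 18.9% and 20.1% of all genes were for WT, ΔGS and ΔADAM. Of all genes, 0.0324% were called for WT, 0.448% for ΔGS and 1.08% for ΔADAM, in either direction.

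The number of members called depended on how the experiments entered the model. With a term for each experiment, which pairs the libraries by the experiment in their labels as a replicate block, 7 of the 8 genes were called higher in each of the 3 comparisons, all but MX2. Beside these counts, 1.62% of all genes were called higher for WT, 2.73% for ΔGS and 3.08% for ΔADAM. The log2 fold changes hardly moved, from 2.39 to 2.35 for RSAD2 in WT and from 2.16 to 2.05 for MX1 in WT, while their SE fell to 0.25 and 0.33. IFIT3 was nearest the threshold, and its call in WT with the block was lost on leaving out any of 8 libraries. With DESeq2 in place of edgeR and the first model, 2, 5 and 5 of the 8 genes were called in WT, ΔGS and ΔADAM, beside 2.81%, 4.36% and 4.84% of the genes that DESeq2 gave an adjusted p. As the genes were chosen from these comparisons, the counts describe the models and lend the genes no support.

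Forms of TYRO3 were also compared with each other. This comparison asks whether the ability to be cut by ADAM proteases or gamma-secretase goes with a difference in the effectors. The control libraries enter it through the filter, the normalisation, the terms for the experiments and the shared estimate of spread. Here no effector passed the test. None of the 8 genes was called for WT against ΔGS, WT against ΔADAM or ΔGS against ΔADAM in either edgeR model, and 0.0% of all genes were called in each of these 3 comparisons and both models. At an unadjusted p under 0.05 the count over the 8 genes was also 0 in each. Of the 15412 genes tested, 152, 109 and 127 were under it in the first model and 372, 170 and 228 with the replicate block. So few genes passed in these comparisons that a count of 0 among 8 says little about the effectors. DESeq2 called 0 of the 8 genes too, and 2, 2 and 1 of all genes.

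The intervals of these differences say how large a difference could have gone unseen. In the first model the log2 differences between forms lay between −0.34 and 0.04, and their 95% intervals reached from −1.97 to 1.64. Paired by experiment with the replicate block, the differences lay between −0.36 and 0.14 and the intervals reached from −0.81 to 0.83. The largest difference was that of RSAD2 between WT and ΔGS, at −0.36 (95% interval −0.78 to 0.06, edgeR adjusted p = 0.937 with the block), with WT below ΔGS in all 3 experiments. MX2 had the narrowest interval, −0.18 to 0.23 for the same comparison. For IFIT1 the intervals with the block were −0.67 to 0.21 for WT against ΔGS, −0.55 to 0.33 for WT against ΔADAM and −0.32 to 0.56 for ΔGS against ΔADAM, so an IFIT1 level up to 1.47-fold higher in ΔGS than in ΔADAM lies within the interval. MX1 had the widest intervals with the block, for example −0.54 to 0.83 for ΔGS against ΔADAM. A p that misses the threshold does not show that the forms act alike.

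TYRO3 transcript itself was not called between the 3 groups, with a log2 difference of −0.07 (95% interval −0.59 to 0.44) for WT against ΔGS, 0.22 (−0.30 to 0.73) for WT against ΔADAM and 0.29 (−0.23 to 0.80) for ΔGS against ΔADAM in the first model. The order of the forms in a single gene changed from experiment to experiment. For IFIT1 and MX1 the ΔADAM library was the highest of the 3 in experiment 2 and the lowest in experiment 3. For RSAD2 and CMPK2 the WT library was the lowest of the 3 in every experiment, which held for none of the other members.

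**Figure D4:**
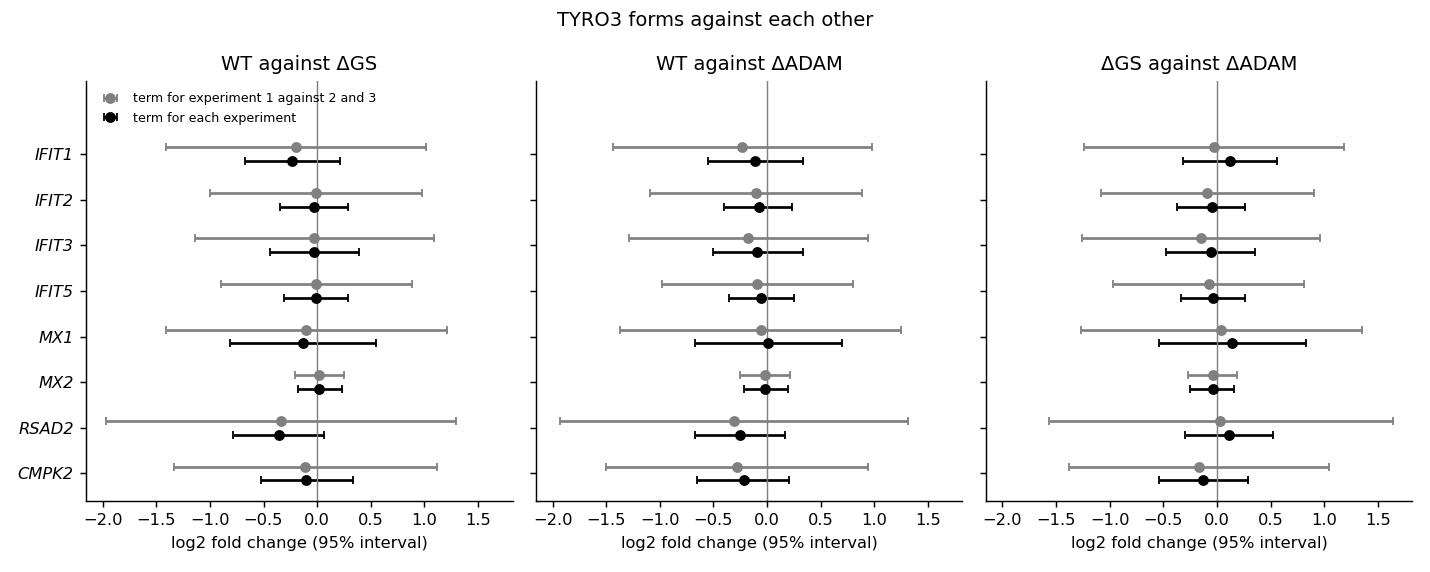
Log2 fold change with 95% interval (horizontal axes) of the 8 genes between TYRO3 forms, from the model that sets experiment 1 apart (grey) and the model with a term for each experiment (black). All intervals include 0, and those of the second model are narrower for each gene.

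The largest differences among TYRO3-transfected libraries were between experiments. These comparisons were added after the values were seen. Unless said otherwise, they come from the fit of all 12 libraries, controls included, with a term for each experiment. Each experiment is a single unit, so SE and p here measure the spread of libraries within experiments and not between them. In this fit 7 of the 8 genes were called higher in experiment 2 than in experiment 3, against 3.89% of all genes. RSAD2 differed most, 4.84-fold (log2 2.27 ± 0.18, edgeR adjusted p = 0.00012), followed by CMPK2 at 2.97-fold, IFIT1 at 2.89-fold, MX1 at 2.78-fold, IFIT3 at 2.60-fold, IFIT2 at 2.39-fold and IFIT5 at 2.17-fold, with edgeR adjusted p between 0.000473 and 0.00814 for these 6. MX2 did not pass (1.07-fold, adjusted p = 0.428). Against experiment 1, 6 genes were called higher in experiment 2, beside 2.74% of all genes, with IFIT1 at 3.14-fold and IFIT3 at 1.94-fold as the extremes, and IFIT2 (1.13-fold, adjusted p = 0.392) and MX2 (1.15-fold, adjusted p = 0.152) did not pass.

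IFIT2 and RSAD2 set experiments 1 and 3 apart. They were 0.475-fold and 0.562-fold as high in experiment 3 as in experiment 1 (edgeR adjusted p = 0.00106 and 0.0124) and were the 2 members called lower, beside 5.85% of all genes. In a fit of the 9 TYRO3-transfected libraries alone, without any control library, the 7 genes other than MX2 were again called higher in experiment 2 than in experiment 3, from 2.34-fold for IFIT5 to 5.33-fold for RSAD2, against 3.79% of all genes. TYRO3 transcript did not follow this order. It was lower in experiment 2 than in experiment 1, 0.436-fold in the 9 libraries (edgeR adjusted p = 0.00207), and did not pass between experiments 2 and 3 (1.06-fold, adjusted p = 0.699). The control libraries showed part of the same order, as experiment 2 exceeded experiment 3 by 1.70-fold for IFIT5 to 2.75-fold for RSAD2 in the 7 genes. An experiment differs from the others in everything done on it, and which of these goes with the levels was not tested.

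Around the effectors stand the genes that make, sense and pass on the interferon signal. Of 85 such genes in 6 lists (interferons, receptors, signal transducers and factors, sensors and adaptors, negative regulators, and other effectors), 76 were high enough to test. In the first model 0 of the 76 were called for WT, 2 for ΔGS (IRF1 and SOCS3) and 6 for ΔADAM (CXCL10, CXCL11, IRF1, ISG20, TLR3 and TRIM25), all higher. Of all genes, 0.0324%, 0.448% and 1.08% were called in that model, in either direction. With the replicate block 41, 45 and 46 were called higher for WT, ΔGS and ΔADAM and none lower. The shares of all genes called higher with the block were 1.62%, 2.73% and 3.08%, and they also apply beside the counts of single lists below. Between TYRO3 forms 0 of the 76 were called in either model, as were 0.0% of all genes. The lists were drawn up with earlier results known, so these counts are descriptions too.

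The interferons themselves were barely detected. IFNB1, the type I interferon that many cells make first, had 0, 6 and 4 counts in the control libraries of experiments 1, 2 and 3 and 2 to 20 counts in the TYRO3-transfected libraries, with the highest, 20, 16 and 13, in the libraries of experiment 2. No other library held 10 counts, the minimum count of the filter, so IFNB1 was tested because of libraries in which it was high. Its fold changes are therefore a description. With the block the log2 fold change of IFNB1 was 1.58 ± 0.65 in WT, 1.78 ± 0.63 in ΔGS and 0.81 ± 0.67 in ΔADAM. It did not pass the test (edgeR adjusted p = 0.193, 0.106 and 0.48). IFNL1, a type III interferon, had 0 or 1 counts in control libraries and 1 to 8 in the others. IFNA1, IFNA2, IFNK and IFNG had 0 counts in all 12 libraries. Of the 6 interferon receptor genes none was called in any comparison, and the medians of their log2 fold changes against control lay between −0.08 and 0.02. IFNGR1, IFNGR2 and IL10RB, the receptor genes with the smallest p for WT in the first model, had log2 fold changes of −0.29 ± 0.11, −0.18 ± 0.20 and −0.06 ± 0.12 in WT with the block.

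Of the 11 signal transducers and factors, 4 were called higher in each comparison with the block, STAT2, IRF9 and IRF1 among them. STAT2 and IRF9 encode parts of the complex that binds the ISRE. IRF9 was at 6.60, 16.4 and 10.5 CPM in control and at 19.4, 25.5 and 14.4 CPM in WT, where the groups overlapped. STAT2 gave 0.61 ± 0.12 and IRF9 gave 0.72 ± 0.16 in WT (adjusted p = 0.0244 and 0.0408, edgeR), and both genes lay above their own control in 9 of 9 libraries. IRF1, a factor that interferon gamma and other signals induce, had a larger change, with 1.40 ± 0.13 in WT, 1.71 ± 0.13 in ΔGS and 1.67 ± 0.13 in ΔADAM (edgeR adjusted p = 0.00108, 0.000232 and 0.00025). IRF7, the factor that amplifies interferon production, was low, at 0.285 to 2.43 CPM in all libraries but the ΔGS library of experiment 3, at 5.30 CPM. It lay above its own control in 9 of 9 libraries, with 0.98 ± 0.73 in WT, 2.17 ± 0.70 in ΔGS and 1.12 ± 0.71 in ΔADAM. It did not pass (adjusted p = 0.487, 0.0795 and 0.343 with edgeR). The kinases JAK1 and TYK2 did not pass either, at 0.03 ± 0.09 and −0.05 ± 0.08 in WT.

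Among 9 tested sensors and adaptors, 4 were called higher for WT and ΔGS and 5 for ΔADAM with the block. TLR3, the endosomal sensor of double-stranded RNA, gave log2 fold changes of 1.62 ± 0.17 in WT and 1.91 ± 0.17 in ΔADAM. DDX58, which encodes the cytosolic RNA sensor RIG-I, gave 1.12 ± 0.13 in WT, and its CPM of 97.9, 208 and 90.5 in WT stood beside 43.5, 83.6 and 48.1 in control. IFI16, a DNA sensor, gave 0.47 ± 0.08 in WT, under the fold threshold.

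Negative regulators were called higher in 6 of 7 cases in each comparison with the block. USP18, which removes ISG15 from proteins and dampens receptor signalling, gave 2.32 ± 0.25 in WT, from 0.672, 4.74 and 2.34 CPM in control to 10.2, 27.4 and 8.0 CPM in WT. SOCS3, an inhibitor of JAK signalling, gave 0.92 ± 0.16 in WT, 1.21 ± 0.16 in ΔGS and 0.67 ± 0.15 in ΔADAM, and the ubiquitin ligase TRIM21 gave 1.10 ± 0.19 in WT. Of 42 other effectors 27, 31 and 31 were called higher for WT, ΔGS and ΔADAM. CXCL11, a chemokine that draws T cells, gave 2.10 ± 0.26, and the exonuclease ISG20 gave 0.79 ± 0.17, both in WT. TRIM25, the ligase that acts on RIG-I, gave 0.58 ± 0.09 in WT, just under the fold threshold.

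**Figure D5:**
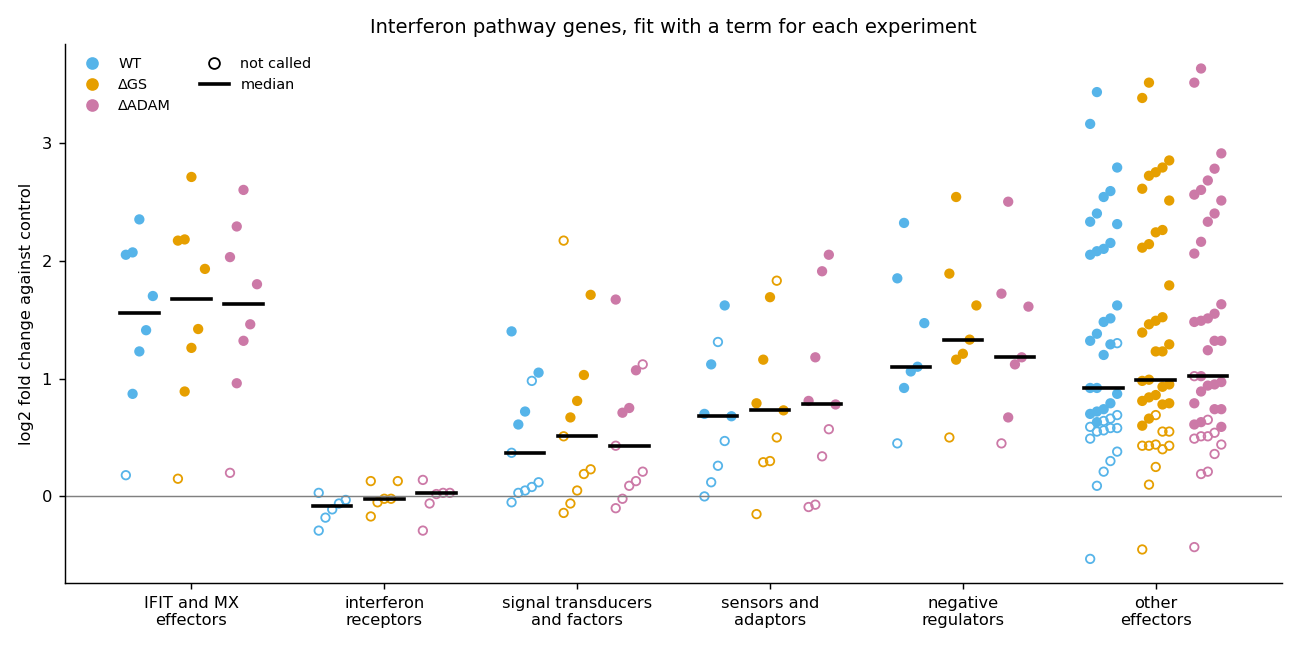
Log2 fold change against control from the model with a term for each experiment (vertical axis) for the 8 effectors and 5 lists of interferon pathway genes, with filled points for genes called, open points for genes not called, and a bar at the median. The receptor genes lie around 0, and GBP2 is the lowest of the other effectors in each comparison.

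The genes most like the members over the 12 libraries were sought with log2 CPM centred within each experiment. Pearson's r between a gene and the mean over the 8 members was 0.997 for DDX58, 0.996 for SP100, 0.993 for CXCL11, 0.993 for NLRC5 and 0.992 for PARP9, the 5 nearest genes outside the list. The 12 points hold 3 control libraries, so the step between control and TYRO3-transfected libraries enters each r, and the points share their libraries with the members. The ratio to the control of the same experiment ran from 1.69 to 2.85 for DDX58, from 2.60 to 7.51 for CXCL11 and from 1.47 to 2.56 for SP100. SP100 encodes a nuclear body protein, NLRC5 a regulator of MHC class I genes, and PARP9 an ADP-ribosyltransferase family member that partners with DTX3L. MX2 had the lowest r of the members with this mean, 0.815, which includes MX2 itself.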

How the data were processed

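Poly(A) RNA of 12 transfected WM-266-4 libraries was sequenced as stranded paired-end reads, which the authors trimmed with PRINSEQ and Trimmomatic 0.33 and quantified with kallisto 0.46.0 on Ensembl release 96 (GRCh38). The deposited files give an estimated count and a TPM value per transcript, without the batch correction that the study applied later. Of 188753 transcripts, 169797 matched GENCODE release 29 by identifier, and they held 97.4% to 97.5% of the estimated counts. Estimated counts were summed per gene and rounded. Genes were kept with filterByExpr (minimum count 10, minimum total 15), which left 15412, and fitted with edgeR 4.0.16 (TMM, quasi-likelihood) on all 12 libraries with group and a term for experiment 1 against 2 and 3. Genes were called at a fold change over 1.5 and a Benjamini-Hochberg adjusted p of at most 0.05. The SE was not fitted directly but derived, as the size of the log2 fold change divided by the square root of its F value. Intervals are 95% intervals from this derived SE and the moderated degrees of freedom.

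The labels name the experiment of each library, so the libraries are paired by it. The deviations of libraries of the same experiment from their group means correlated at r = 0.14 to 0.65 over genes in all 18 pairs. A control and a TYRO3-transfected library correlated less, at 0.14 to 0.37, than 2 TYRO3 forms did, at 0.42 to 0.65. A fit with a term for each experiment (replicate block) was therefore given beside the first. TPM, as deposited by the authors, was used for levels between genes and for an alternative test with limma 3.58.1 on log2(TPM + 1) and log2(TPM + 0.1). Other alternatives were DESeq2 1.42.0, other size factors, other filters and leaving out each library. The scripts were tested on simulated data.

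The members and gene lists were chosen with earlier results of these data known. Named genes are the 8 members, TYRO3, IFNB1, IFNL1, STAT2, IRF9, IRF7, the genes of each list called in all 3 comparisons with control (none was in the first model) or else the 3 with the smallest p for WT, and the 5 genes most like the members. Other genes, such as CXCL10, JAK1, TYK2 and GBP2, were named after their values were seen. Promoter sequences come from RefSeq (GRCh38.p14), with 6 of the 8 members matched by symbol. Some genes of the lists are not reported here.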

Additional observations from a re-analysis of the deposited data

How the results depend on the processing

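The log2 fold changes against control kept their direction for all 8 members under every alternative that gave a value (a minimum of 10 counts in every library gave none for RSAD2 and CMPK2), whereas the number of members called did not. It was 0 for WT, ΔGS and ΔADAM in the first model, 2, 5 and 5 with DESeq2, 6, 7 and 7 without a filter on low counts, and 7, 7 and 7 with the replicate block, which pairs the libraries by experiment. Leaving out 1 library moved it from 0 to 2 for ΔADAM (without the ΔGS library of experiment 3) and left it at 0 for WT and ΔGS. With the block, DESeq2 also called 7, 7 and 7, and leaving out 1 library gave 5 to 7 for WT, 6 to 7 for ΔGS and 7 for ΔADAM, where IFIT3 was lost (without the WT library of any experiment, the control of experiment 2 or 3, or the ΔGS or ΔADAM library of experiment 1 or the ΔGS library of experiment 2 for WT, and without the ΔGS library of experiment 1 or 2 or the control of experiment 2 or 3 for ΔGS) and, for WT without the WT library of experiment 1 or of experiment 2, also MX1. Without the shallow control library of experiment 1 the block gave 7, 7 and 7. These 2 kinds of refit were added after the data were seen. The interferon pathway genes called went from 0, 2 and 6 to 41, 45 and 46 with the block. Of all genes, 5, 69 and 166 were called in the first model, 353, 703 and 784 with the block, 374, 607 and 673 with DESeq2, and 562, 765 and 879 without a filter, while leaving out 1 library gave 1 to 20, 1 to 137 and 1 to 449. The cause of these shifts was not tested.

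The median log2 fold change of the members against control ran over left-out libraries from 1.18 to 1.92 for WT, from 1.40 to 2.04 for ΔGS and from 1.14 to 2.16 for ΔADAM, with the low end without the group's own library of experiment 2. A minimum of 10 counts in every library gave 1.39 for ΔGS, but this median is over fewer genes, since RSAD2 and CMPK2 drop out. Between forms the medians changed sign as libraries were left out, from −0.52 to 0.23 for WT against ΔGS, −0.65 to 0.42 for WT against ΔADAM and −0.41 to 0.50 for ΔGS against ΔADAM. No member was called between forms under any alternative. The ISRE core was held by 5 genes, by 4 when GAAANNGAAACT was asked for, and by 6 with GAAANNGAA. The control library of experiment 1 held fewer than 10 counts of RSAD2 and of CMPK2.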
